A study of Mus musculus with 4 samples.

Results

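The Fc receptor genes are 6 mouse genes chosen by name, Fcgr1, Fcgr3, Fcgr4, Fcgr2b, Fcer1g and Fcgrt, of the 24706 genes with a value in the files. All 6 were found in each of the 4 libraries and all 6 averaged at least 1 FPKM (fragments per kilobase of gene model, scaled to the counted reads of the library), so that all were tested. RNA-seq was performed on 4 libraries labelled as myeloid cells, 2 labelled wt and 2 labelled cko. The wt libraries come from PD-1f/f mice, which carry LoxP sites in both copies of Pdcd1, the gene of the immune checkpoint receptor PD-1. The cko libraries come from animals labelled PD-1f/f; LysM-Cre. Their Cre is driven by the Lyz2 (LysM) promoter, active in monocytes, macrophages and neutrophils. By these labels the floxed alleles are shared by both groups, and Cre is the difference that the labels give. The methods speak of wild-type controls and of RNA from liver at postnatal day 2, whereas the account of the experiment gives CD11b+ cells sorted from liver at postnatal day 3, and neither source says how many animals stand behind a library. The comparison asks whether PD-1 loss in myeloid cells went with a change in the RNA of the receptors through which these cells sense antibodies.

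Fc receptors bind the constant part of antibodies and let phagocytes respond to coated particles and immune complexes. In mice Fcgr1, Fcgr3 and Fcgr4 encode the activating receptors FcγRI, FcγRIII and FcγRIV, which signal through the ITAM (an activating tyrosine motif) of a common partner, the FcRγ chain encoded by Fcer1g. Fcgr2b encodes the inhibitory receptor FcγRIIB, whose own inhibitory motif recruits the phosphatase SHIP1, and the balance of activating and inhibitory receptors sets how strongly a cell answers an immune complex. Fcgrt encodes the heavy chain of FcRn, which pairs with β2-microglobulin, lies mainly inside the cell and rescues IgG and albumin from degradation.

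The genes of the 3 activating receptors are shown with the 120 bases before their start, because the pattern of levels reported here separates them from one another. The sequences are from RefSeq (GRCm38.p6), read 5′ to 3′ along the gene's own strand, at chr3:96293970-96294089 (minus strand) for Fcgr1, chr1:171059404-171059523 (minus strand) for Fcgr3, at the first of its 2 listed starts, and chr1:171018806-171018925 (plus strand) for Fcgr4. Capitals mark GAGGAA, a core of binding sites of the myeloid factor PU.1, which reads TTCCTC on the strand shown, and in Fcgr1 also TTCNNNGAA, the spacing of a GAS element, known from promoters that respond to interferon-γ.
Fcgr1: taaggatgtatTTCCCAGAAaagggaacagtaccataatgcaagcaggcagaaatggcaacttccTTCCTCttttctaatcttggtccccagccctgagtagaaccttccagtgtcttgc
Fcgr3: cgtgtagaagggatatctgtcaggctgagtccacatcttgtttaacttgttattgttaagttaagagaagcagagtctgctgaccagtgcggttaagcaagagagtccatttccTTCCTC
Fcgr4: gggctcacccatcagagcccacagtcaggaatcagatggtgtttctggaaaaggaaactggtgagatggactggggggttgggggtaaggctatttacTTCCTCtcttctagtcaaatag
GAGGAA was searched on both strands of the 250 bases before each start and occurs in 23.3% of 32851 mouse promoters, and TTCNNNGAA occurs in 7.02%. Each of the 3 activating genes holds GAGGAA once in this window, and Fcgr1 holds TTCNNNGAA once. Neither string of letters is in the same window of Fcgr2b, Fcer1g or Fcgrt.

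Fcgr2b and Fcgr3 share coding sequence, which matters for how reads are divided between the inhibitory and an activating receptor. The longest coding run identical in both spans 129 bases in exons 3 and 4 of each, at chr1:170966674-170968081 for Fcgr2b and chr1:171054167-171057792 for Fcgr3 (GRCm38, GENCODE M21, minus strand).
Fcgr2b and Fcgr3, shared run: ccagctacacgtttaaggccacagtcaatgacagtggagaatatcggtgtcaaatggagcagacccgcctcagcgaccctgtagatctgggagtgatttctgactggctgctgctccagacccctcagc
Of all stretches of 50 bases in the transcripts of Fcgr3, 9.58% were also found in Fcgr2b, and of the stretches of 100 bases 2.54% were. For Fcgr2b, 6.95% of the stretches of 50 bases and 4.30% of those of 100 bases were found in another gene. These genes included Cplx2, Gm47409, Rab3c and Gm38204 as well as Fcgr3. No stretch of either length in Fcgr1, Fcgr4, Fcer1g or Fcgrt was found in another gene. The values of Fcgr3 and Fcgr2b are therefore less certain than those of the other members, and the read length is not given in the sources used here.

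The libraries held 17691505 to 22212407 counted reads, so that 1 read on a gene model of 1 kb was worth 0.0450 to 0.0565 FPKM. Correlations between libraries were 0.936 to 0.966 (Pearson, log2 values across genes). Pdcd1 was at 28.5 and 34.7 FPKM in the wt and 17.1 and 21.4 FPKM in the cko libraries (log2 fold change -0.69, SE 0.19, limma adjusted p = 0.218), in values over the whole gene. Wt replicate 2 stood apart in carrying transcripts of the Y chromosome (Ddx3y at 24.9 FPKM against at most 0.00866 in the other libraries) with almost no Xist, so the sexes of the animals differ within the wt group. The myeloid label fits Itgam (CD11b), at 48.5 to 54.3 FPKM, and Ptprc (CD45), at 58.1 to 75.1 FPKM in all 4 libraries. Summed neutrophil markers were lower in the cko (110341 and 91726 FPKM) than in the wt libraries (161117 and 137051 FPKM). Erythroid (red cell) markers were present as well, with sums of 3713 and 2335 FPKM in wt and 1422 and 1506 FPKM in cko. Of these 8 markers 0 were higher and 5 lower in cko at an unadjusted limma p under 0.05, beside 11.4% and 4.95% of all tested genes. In such bulk samples fewer cells of a type and less RNA per cell cannot be told apart. By these transcripts the wt replicates are not the same animal, whereas nothing says whether the cko replicates came from separate animals, so p-values measure only the spread between these libraries.

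None of the 6 Fc receptor genes passed a test for a difference between wt and cko libraries. At an adjusted p under 0.05 with a log2 fold change of at least 1 in either direction (limma on log2(FPKM + 1), Benjamini-Hochberg over 10779 genes), 0 of the 6 were called and 0% of all tested genes were. At an unadjusted p under 0.05 again 0 of the 6 were called, against 16.4% of all tested genes, 11.4% higher in cko and 4.95% lower. Without cko replicate 1 the log2 fold change of Fcgr1 was 1.55, and without cko replicate 2 that of Fcgrt was -0.52. For each of the 6 the values of the wt and cko libraries overlapped, whereas the groups lay apart for 51.6% of all tested genes, with cko higher for 33.6% and cko lower for 18%. With 2 libraries against 2, the smallest p that an exact two-sided permutation test of 1 gene allows is 0.333.

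**Figure D1:**
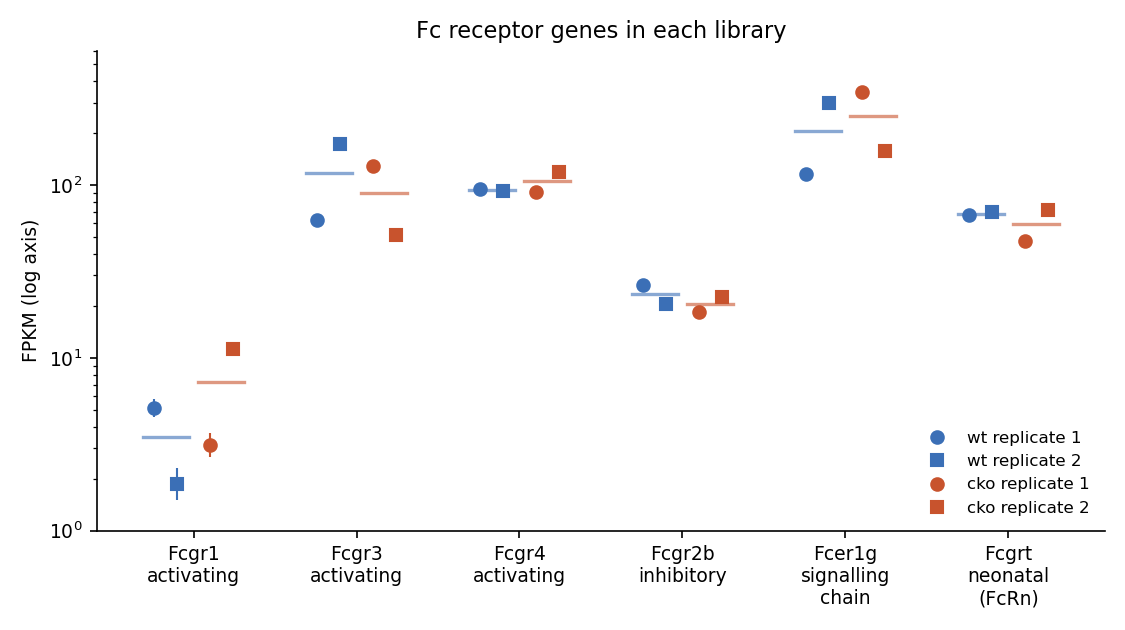
FPKM of the 6 Fc receptor genes on a log axis in each of the 4 libraries, with horizontal lines for group means and vertical bars for 95% Clopper-Pearson counting intervals, mostly smaller than the symbols. Wt (blue) and cko (orange) values overlap for every gene, and Fcgr3 and Fcer1g are high in wt replicate 2 and cko replicate 1.

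The order of the genes was alike at both ends in every library. FPKM is scaled by gene length, so levels of different genes can be set side by side. Fcer1g was the highest, Fcgr2b the fifth and Fcgr1 the lowest of the 6 in each of the 4 libraries. The highest Fcgr2b value (26.4 FPKM) lay below every value of Fcgr3, Fcgr4 and Fcgrt, and the highest Fcgr1 value (11.3 FPKM) lay below every Fcgr2b value. Between these, Fcgr4, Fcgrt and Fcgr3 changed places: Fcgr3 was second in wt replicate 2 and cko replicate 1 and below Fcgr4 and Fcgrt in the other two libraries, and the ranges of Fcer1g, Fcgr3 and Fcgr4 overlapped. The gene model of Fcgr2b is the longest, with 5790 bp against 874 to 2589 bp for the others, and includes transcripts with retained introns, which lowers its FPKM for a given number of reads.

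Fcgr1, the high-affinity receptor for monomeric IgG, was the lowest and relatively the most variable member. Fcgr1 (ENSMUSG00000015947, chr3:96282909-96293969, GRCm38) was at 5.15 and 1.87 FPKM in wt replicates 1 and 2 and at 3.13 and 11.3 FPKM in cko replicates 1 and 2. Its highest value, in cko replicate 2, was 6.04-fold its lowest, in wt replicate 2, and both wt values fell on either side of the lower cko value. These values rest on 296, 91, 152 and 517 reads, and the 95% Clopper-Pearson intervals, which cover counting error only, were 1.503 to 2.29 FPKM in wt replicate 2 and 10.3 to 12.3 FPKM in cko replicate 2, so counting error does not span the spread. Group means were 3.51 ± 2.32 FPKM in wt and 7.21 ± 5.77 FPKM in cko (SD, n = 2 each), and the log2 fold change of 0.76 (SE 0.60) had a limma adjusted p of 0.546. Without cko replicate 2 the log2 fold change was -0.02, and without cko replicate 1 it was 1.55.

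Fcgr3, the low-affinity activating receptor for immune complexes, changed far more between replicates than between groups. Fcgr3 (ENSMUSG00000059498, chr1:171051174-171064935) was at 62.7 and 173 FPKM in the wt and at 129 and 51.5 FPKM in the cko libraries, from 1583 to 5654 reads. Wt replicate 2 was 2.76-fold wt replicate 1, and cko replicate 1 was 2.51-fold cko replicate 2. The highest and the lowest library thus belonged to different groups with the other pair in between. Means were 118 ± 78.0 FPKM in wt and 90.4 ± 55.0 FPKM in cko (SD, n = 2 each), with a log2 fold change of -0.35 (SE 0.60, limma adjusted p = 0.798). It ran from -1.07 to 0.38 on leaving out 1 library, and was positive without wt replicate 2 (0.38) and without cko replicate 2 (0.31).

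Fcgr4, the activating receptor that binds IgG2a and IgG2b in mice, was the steadiest of the 6. Fcgr4 (ENSMUSG00000059089, chr1:171018920-171029761) was at 94.7 and 92.4 FPKM in the wt and at 91.8 and 119 FPKM in the cko libraries. The counting intervals of both wt libraries and of cko replicate 1 overlapped, with 91.2 to 98.4, 88.5 to 96.3 and 87.9 to 95.7 FPKM, so that only cko replicate 2 (115 to 124 FPKM) stood higher. The log2 fold change was 0.16 (SE 0.17, limma adjusted p = 0.662) and -0.03 without cko replicate 2. Its FPKM spanned 1.30-fold. Relative to the common leukocyte gene Ptprc the 4 values came even closer, at 1.54 and 1.59 in wt and 1.52 and 1.59 in cko, a range of 1.05-fold. Relative to Itgam they lay further apart, at 1.84 and 1.70 in wt and 1.89 and 2.42 in cko, a range of 1.42-fold. An snRNA gene (Gm26110) lies within Fcgr4 at 0 to 3.08 FPKM.

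Fcgr2b, the inhibitory receptor, was at 26.4 and 20.5 FPKM in the wt and at 18.4 and 22.5 FPKM in the cko libraries (ENSMUSG00000026656, chr1:170958617-170976547). Wt replicate 1 was the highest and cko replicate 1 the lowest, 1.43-fold apart, and the other two lay between them. Means were 23.4 ± 4.14 FPKM in wt and 20.5 ± 2.88 FPKM in cko (SD, n = 2 each). The log2 fold change of -0.18 (SE 0.19, limma adjusted p = 0.658) stayed negative with each library left out, from -0.36 to -0.0093, and never passed the test. Its antisense neighbour Gm38204 was at no more than 0.257 FPKM, and whether reads were counted by strand is not given in the sources used here.

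Fcer1g, the signalling chain of the activating receptors, had the highest level of the 6 and the same up and down between replicates as Fcgr3. Fcer1g (ENSMUSG00000058715, chr1:171229572-171234365) was at 115 and 297 FPKM in the wt and at 348 and 157 FPKM in the cko libraries, from 2239 to 5707 reads. Wt replicate 2 was 2.58-fold wt replicate 1, and cko replicate 1 was 2.22-fold cko replicate 2. The 2 high libraries were again wt replicate 2 and cko replicate 1. Means were 206 ± 129 FPKM in wt and 253 ± 136 FPKM in cko (SD, n = 2 each), and the log2 fold change was 0.33 (SE 0.55, limma adjusted p = 0.784). It became negative without wt replicate 1 (-0.34) or cko replicate 1 (-0.24).

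Fcgrt, the FcRn heavy chain, was at 66.8 and 69.9 FPKM in the wt and at 47.4 and 71.7 FPKM in the cko libraries (ENSMUSG00000003420, chr7:45092990-45103851). Cko replicate 1 alone was low, and the other 3 libraries lay within 5 FPKM of each other. The log2 fold change of -0.22 (SE 0.22, limma adjusted p = 0.635) became 0.07 without cko replicate 1. B2m, the gene of its partner β2-microglobulin, was at 998 and 981 FPKM in wt and 880 and 1198 FPKM in cko (log2 fold change 0.05, limma adjusted p = 0.912). The ratio of B2m to Fcgrt was 15.0 and 14.0 in wt and 18.6 and 16.7 in cko, apart between the groups but by 1.22-fold on average. Alb, the gene of albumin, a ligand that FcRn rescues, was at 6.13 to 12.4 FPKM over the 4 libraries (limma adjusted p = 0.420).

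**Figure D2:**
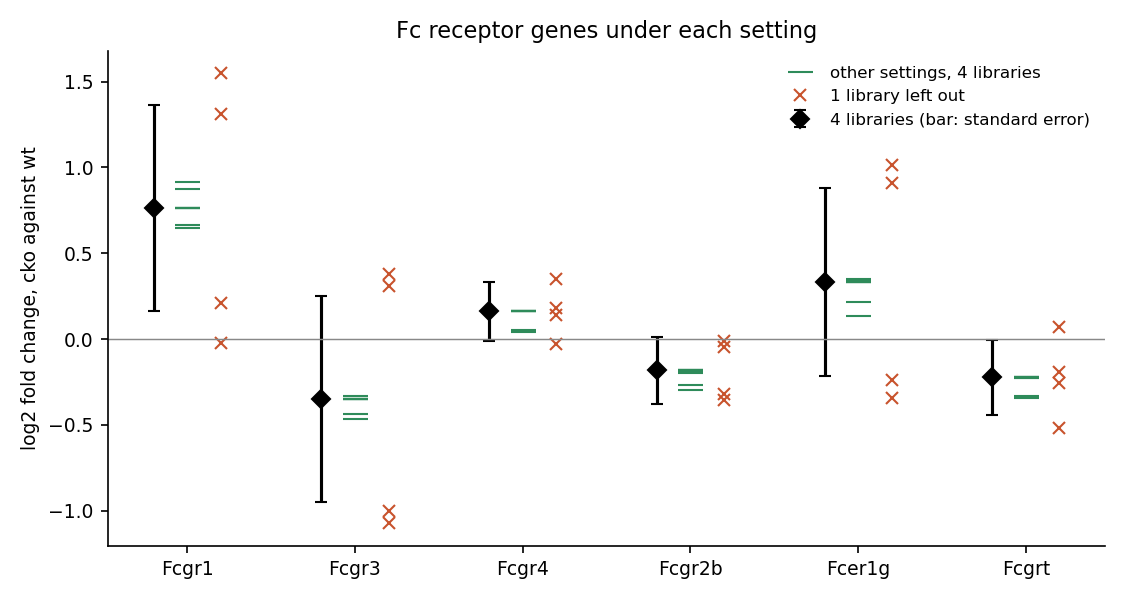
Log2 fold change (cko against wt) of each Fc receptor gene with all 4 libraries (black, bar for the standard error), under other settings with 4 libraries (green) and with 1 library left out (orange crosses). The crosses of Fcgr1, Fcgr3, Fcgr4, Fcer1g and Fcgrt lie on both sides of 0, while those of Fcgr2b lie between -0.36 and -0.0093.

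The joint swing of Fcgr3 and Fcer1g between replicates, noticed once their values had been seen, was uncommon among all genes. On the log2 scale wt replicate 2 exceeded wt replicate 1 by 1.45 for Fcgr3 and 1.36 for Fcer1g, and cko replicate 1 exceeded cko replicate 2 by 1.31 and 1.15. Only 1.59% and 1.77% of tested genes had a larger gap within wt, and 2.56% and 3.40% within cko. Both gaps exceeded 1 in these directions for 29 of 10779 tested genes (0.269%), and both exceeded 1 in the opposite directions for 43. Of the 29, 5 were protein-coding (Fcgr3, Fcer1g, Fbxl8, Gm5741 and Pim1), and Fcgr3 and Fcer1g were the only 2 that averaged at least 50 FPKM. Pim1, a serine/threonine kinase gene, was at 5.84 and 23.9 FPKM in wt and at 79.4 and 24.0 FPKM in cko, and unlike Fcgr3 it was not lower in cko replicate 2 than in wt replicate 1.

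**Figure D3:**
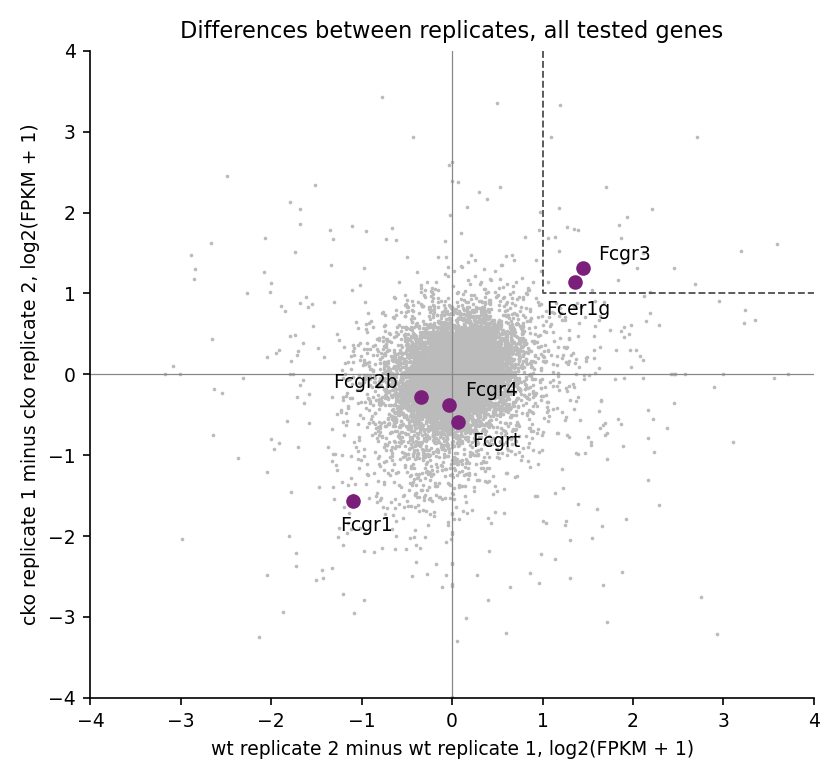
Difference between the wt replicates (x axis) and between the cko replicates (y axis, replicate 1 minus replicate 2) in log2(FPKM + 1) for all tested genes (grey, 6 outside the axes) and the Fc receptor genes (purple). Fcgr3 and Fcer1g are inside the dashed corner that holds 29 of 10779 genes, Fcgr1 lies opposite, and Fcgr4, Fcgr2b and Fcgrt lie in the central cloud.

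Fcgr1 moved in the other direction, with wt replicate 2 below wt replicate 1 by 1.10 on the log2 scale (log2 difference -1.10) and cko replicate 2 above cko replicate 1 by 1.57. The gaps of Fcgr4, Fcgr2b and Fcgrt were smaller, at most 0.59 on the log2 scale. At least 30.5% of tested genes had a larger gap within wt. Within cko 28.9% did for Fcgr4 and 42.1% for Fcgr2b, but only 14.3% for Fcgrt, whose gap there was not small among all genes. The 6 genes thus fell into 3 kinds by how they varied between replicates, although Fcgr2b, Fcgr4, Fcgr3 and Fcer1g lie in this order along 1 stretch of chromosome 1.

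None of 13 cell type marker lists had the pattern of Fcgr3 and Fcer1g in its summed FPKM (higher in wt replicate 2 than 1 and in cko replicate 1 than 2), while 6 lists had the opposite one. Macrophage and Kupffer cell markers summed to 425 and 298 FPKM in wt and to 294 and 474 FPKM in cko. Of these 12 markers 11 were tested, with 1 higher and 1 lower in cko at an unadjusted p under 0.05, beside 11.4% and 4.95% of all tested genes. NK and T cell markers, from lineages of which NK cells use Fcgr3, summed to 71.8 and 48.5 FPKM in wt and 38.2 and 32.7 FPKM in cko. Neutrophils carry Fcgr3 and Fcgr4, and neutrophil markers had sums that were higher in replicate 1 of each group. Of 12 neutrophil markers 3 were higher and 6 lower in cko at an unadjusted p under 0.05, beside 11.4% and 4.95% of all tested genes. None of these sums was high in both libraries in which Fcgr3 and Fcer1g were high, but sums weigh the most abundant markers most. Among single neutrophil markers, Ltf, Ngp, Lcn2, Ly6g, Mmp8, Mmp9 and Retnlg had the direction of Fcgr3 and Fcer1g in both groups. Camp, Cxcr2, Csf3r, S100a8 and S100a9 did not. The part of neutrophils in the levels of Fcgr3 and Fcer1g was not tested.

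In 3 lists the libraries stood in the order of Fcgr1. Monocyte markers summed to 543 and 511 FPKM in wt and to 528 and 680 FPKM in cko. Of the 10, 2 were higher and 0 lower in cko at an unadjusted p under 0.05, beside 11.4% and 4.95% of all tested genes. Mast cell and basophil markers summed to 180 and 100 FPKM in wt and 143 and 271 FPKM in cko, and endothelial markers to 64.9 and 47.2 FPKM in wt and 56.8 and 68.7 FPKM in cko. Their part in the levels of Fcgr1 was not tested. B cells carry Fcgr2b as their Fc receptor, and B cell markers summed to 56.98 and 71.1 FPKM in wt and 36.6 and 47.1 FPKM in cko. Dendritic cell markers reached 2.40 to 4.49 FPKM in sum, with 6 of 7 under 1 FPKM in every library, and no marker of any list was at 0 in all 4 libraries.

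The ratio of activating to inhibitory receptors did not separate the groups. The FPKM of Fcgr1, Fcgr3 and Fcgr4 summed to 163 and 267 in wt and to 224 and 182 in cko, and this sum was 6.17-fold and 13.04-fold Fcgr2b in wt and 12.2-fold and 8.11-fold Fcgr2b in cko. Both cko ratios lay between the 2 wt ratios, and the mean log2 difference of 0.15 was smaller than the SD within wt (0.76) and within cko (0.41). It ran from -0.39 without wt replicate 1 to 0.69 without wt replicate 2.

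Which activating receptor led the sum changed from library to library. Fcgr3 made up 38.6% and 64.7% of it in wt and 57.7% and 28.3% in cko, Fcgr4 58.3% and 34.6% in wt and 40.9% and 65.5% in cko, and Fcgr1 from 0.699% to 6.19%. The ratio of Fcgr3 to Fcgr2b was 2.38 and 8.44 in wt and 7.02 and 2.29 in cko, in which wt replicate 2 and cko replicate 1 were high, as for Fcgr3 itself. The ratio of Fcgr4 to Fcgr2b was 3.60 and 4.51 in wt and 4.98 and 5.31 in cko, with both cko libraries above both wt libraries and a mean ratio 1.28-fold higher. Without Fcgr3 the summed ratio was likewise apart, at 3.79 and 4.60 in wt and 5.15 and 5.81 in cko (log2 difference 0.39).

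**Figure D4:**
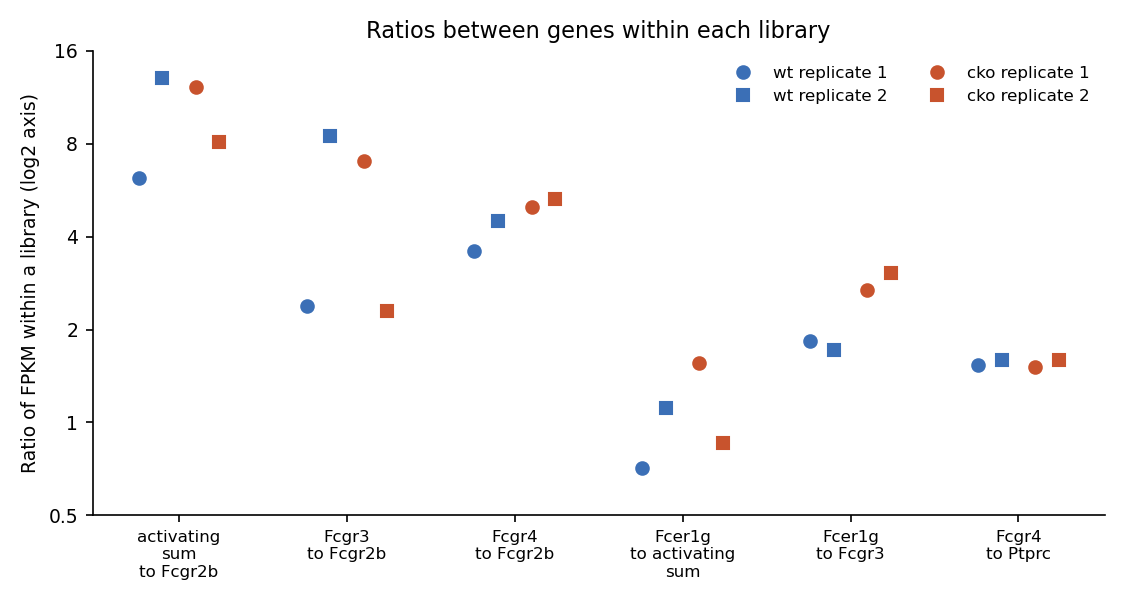
Ratios of FPKM within each library on a log2 axis for 6 gene pairs or sums (blue wt, orange cko, circles replicate 1, squares replicate 2). The activating sum to Fcgr2b overlaps between groups (6.17 and 13.04 against 12.2 and 8.11), Fcer1g to Fcgr3 does not (1.84 and 1.72 against 2.70 and 3.04), and Fcgr4 to Ptprc stays between 1.52 and 1.59.

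The signalling chain kept a steadier ratio to Fcgr3 than to Fcgr4, with ranges of 1.77-fold and 3.12-fold over the 4 libraries. Fcer1g to Fcgr3 was 1.84 and 1.72 in wt and 2.70 and 3.04 in cko, close within each group and 1.61-fold higher in cko. The log2 difference was 0.69 (0.60 to 0.78 with 1 library left out), and the SD was 0.070 within wt and 0.12 within cko. This ratio was added after both genes had been seen to swing together. The small SDs follow from that choice and give the difference no support. Over the activating sum, Fcer1g was 0.709 and 1.11 in wt and 1.55 and 0.860 in cko, and over Fcgr4 it was 1.22 and 3.22 in wt and 3.80 and 1.31 in cko, so both overlapped between the groups. Tyrobp encodes DAP12, another adaptor chain with an ITAM, and was at 195 and 140 FPKM in wt and 115 and 152 FPKM in cko (log2 fold change -0.32, SE 0.23, limma adjusted p = 0.503). Fcer1g was below Tyrobp in wt replicate 1 (ratio 0.592) and above it in the other libraries (1.03 to 3.03).

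In all, 24 ratios were computed, and the groups were apart in 7. For single genes the groups lay apart in 51.6% of all tested genes, but that share is of another measure. A ratio cancels differences in scaling between libraries, and the 24 ratios share genes. The ratios that were apart only describe these libraries. Beside the 4 already given, Fcgr4 to Itgam was 1.84 and 1.70 in wt and 1.89 and 2.42 in cko. Fcgr2b to Ptprc was 0.427 and 0.353 in wt and 0.305 and 0.299 in cko, and Fcgrt to Ptprc was 1.08 and 1.20 in wt and 0.784 and 0.955 in cko, both lower in cko. The last 3 depend on the denominator, since Fcgr4 to Ptprc, Fcgr2b to Itgam and Fcgrt to Itgam overlapped between the groups. The ratios have no test, since the smallest p of an exact permutation test would be 0.333.

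Downstream of the activating receptors, 0 of 36 tested genes of ITAM signalling (40 chosen, all in the files) passed the adjusted test. At an unadjusted p under 0.05, 12 were higher and 1 lower in cko, beside 11.4% and 4.95% of all tested genes, and in 17 both cko libraries lay above both wt libraries and in 4 below, beside 33.6% and 18% of all tested genes. The median log2 fold change was 0.25, beside 0.09 for all tested genes, and with median-of-ratios scaling, which brings the latter to -0.0056, it was 0.13 with 7 higher and 2 lower. With a replicate block 8 were higher and 0 lower, beside 1247 of all 10779 tested genes with an unadjusted p under 0.05 in either direction. The list median was 0.12 without wt replicate 1 and 0.34 without wt replicate 2. It was 0.18 without cko replicate 1 and 0.24 without cko replicate 2. Markers of monocytes (median log2 fold change 0.36) and granulocyte precursors (0.30) lay on the same side, and their part in these values was not tested.

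Among these genes Gab2, a docking protein for PI3-kinase, was at 2.94 and 2.67 FPKM in wt and 5.93 and 6.80 FPKM in cko (log2 fold change 0.95, SE 0.18, limma adjusted p = 0.199), and Rac1, a GTPase of the phagocytic cup, at 11.2 and 13.3 FPKM in wt and 23.7 and 19.0 FPKM in cko (adjusted p = 0.214). In both the groups were apart with cko higher, short of the adjusted threshold. Syk, the kinase that binds phosphorylated ITAMs, was at 15.3 and 17.3 FPKM in wt and 21.2 and 25.0 FPKM in cko (log2 fold change 0.48, limma adjusted p = 0.261). Lyn, a Src family kinase that phosphorylates ITAMs and inhibitory motifs, was at 70.0 and 69.3 FPKM in wt and 88.3 and 128 FPKM in cko (log2 fold change 0.60, limma adjusted p = 0.259). Sh3bp2, an adaptor that binds Syk, was the 1 gene of the list lower in cko at an unadjusted p under 0.05, at 20.03 and 18.7 FPKM in wt and 13.9 and 13.8 FPKM in cko (adjusted p = 0.251).

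**Figure D5:**
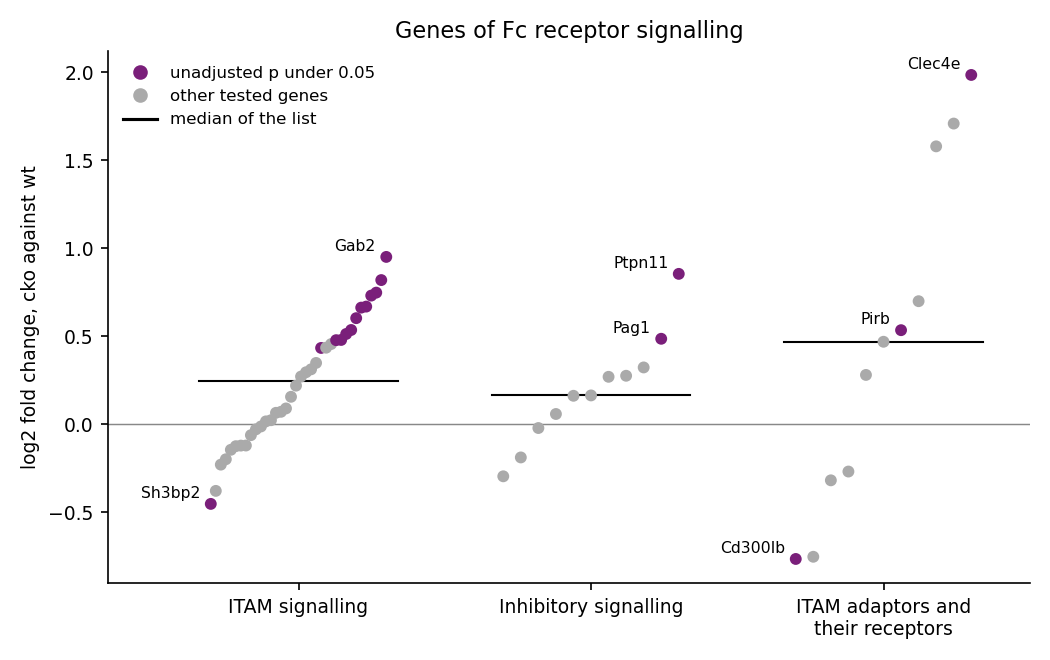
Log2 fold change (cko against wt) of the tested genes of 3 Fc receptor signalling lists, sorted within each list, with the list median as a line and genes with an unadjusted p under 0.05 in purple. No gene passed the adjusted test, the medians are 0.25, 0.16 and 0.47, and the third list includes Pirb, which has inhibitory motifs of its own.

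On the inhibitory side, 0 of 11 tested genes passed the adjusted test, and 2 were higher and 0 lower in cko at an unadjusted p under 0.05, beside 11.4% and 4.95% of all tested genes. The median log2 fold change was 0.16, beside 0.09 for all tested genes, and 0.09 with median-of-ratios scaling and 0.05 with quantile normalization. Inpp5d, which encodes the SHIP1 phosphatase that FcγRIIB recruits, was at 39.2 and 32.2 FPKM in wt and 32.0 and 38.3 FPKM in cko (log2 fold change -0.02, limma adjusted p = 0.966), with overlapping groups as for Fcgr2b. Ptpn6 (SHP-1), another phosphatase of inhibitory receptors, was at 226 and 223 FPKM in wt and 250 and 295 FPKM in cko (adjusted p = 0.396). The 2 genes with the lower p were Ptpn11 (SHP-2), at 5.02 and 5.88 FPKM in wt and 10.4 and 10.9 FPKM in cko (adjusted p = 0.199), and Pag1, an adaptor that binds the kinase Csk, at 15.9 and 15.3 FPKM in wt and 21.6 and 22.8 FPKM in cko (adjusted p = 0.235). Ptpn11 also takes part in activating pathways. The list median was 0.12 without wt replicate 1 and 0.27 without wt replicate 2. It was 0.28 without cko replicate 1 and 0.14 without cko replicate 2.

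Of the genes of other receptors that use the Fcer1g chain or another ITAM adaptor, together with the adaptors, 11 of 16 were tested, 0 passed the adjusted test, and 2 were higher and 1 lower in cko at an unadjusted p under 0.05, beside 11.4% and 4.95% of all tested genes. Pirb was on this list beside its activating relative Pira2, although it signals through inhibitory motifs of its own, and without it 1 of 10 was higher and 1 lower. Clec4e encodes Mincle, a receptor for microbial glycolipids that signals through the Fcer1g chain, and was at 18.5 and 13.7 FPKM in wt and 37.0 and 117 FPKM in cko (log2 fold change 1.99, SE 0.52, limma adjusted p = 0.214). Its 4 libraries did not follow Fcer1g, since cko replicate 2 was the highest and wt replicate 2 the lowest. Pirb, an inhibitory receptor for MHC class I, was at 77.9 and 67.0 FPKM in wt and 106 and 104 FPKM in cko (adjusted p = 0.218), and Cd300lb, which can signal through DAP12, at 82.0 and 93.3 FPKM in wt and 57.6 and 45.2 FPKM in cko (adjusted p = 0.212). The median log2 fold change was 0.47 (0.37 without Pirb), beside 0.09 for all tested genes. With 1 library left out it ran from 0.22 without wt replicate 2 to 0.64 without wt replicate 1.

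Other Fc-binding and Fc receptor-like genes were low in these cells. Of 13 chosen, 10 were in the files and 3 were tested, and Fcamr, Pigr and Fcrl5 were not analysed here. The 10 summed to 7.89 to 11.0 FPKM per library, beside 115 to 348 FPKM for Fcer1g alone, and 0 of the 3 tested had an unadjusted p under 0.05. Ms4a2, the β chain of the IgE receptor of mast cells and basophils, was at 1.66 and 0.642 FPKM in wt and 1.37 and 2.31 FPKM in cko (adjusted p = 0.562), and Fcrla, a B cell gene, at 3.12 and 5.94 FPKM in wt and 2.996 and 3.53 FPKM in cko (adjusted p = 0.595). Spi1, which encodes PU.1, was at 77.3 and 126 FPKM in wt and 264 and 145 FPKM in cko (log2 fold change 0.98, SE 0.36, limma adjusted p = 0.275). Its level was highest in cko replicate 1 and lowest in wt replicate 1, as was that of Fcer1g, but cko replicate 2 lay above wt replicate 2 for Spi1 and below it for Fcer1g. The other 5 Fc receptor genes had their highest value in another library.

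Genes with the most similar pattern over the 4 libraries were sought by the Euclidean distance between centred log2(FPKM + 1) values, among 5812 genes that averaged at least 5 FPKM. For Fcgr1 the nearest were Il1a (distance 0.125), at 7.39 and 2.66 FPKM in wt and 4.70 and 16.7 FPKM in cko, Marco, a scavenger receptor of macrophages (0.201), at 44.0 and 24.3 FPKM in wt and 30.8 and 94.0 FPKM in cko, and the snoRNA gene Gm24347 (0.205). Only 4 genes lay within a distance of 0.3 of Fcgr1. None lay so near to Fcgr3 or Fcer1g. Nearest to Fcgr3 were Gm13369 (0.330), Slc22a20 (0.522) and Zfp955b (0.541), and nearest to Fcer1g were B4galt3 (0.376), Chil3 (0.398) and Gm21769 (0.474). Chil3, a secreted product of myeloid cells, was at 322 and 599 FPKM in wt and 962 and 437 FPKM in cko.

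The steadier members had many like genes. Within a distance of 0.3 there were 1089 genes for Fcgr4, 674 for Fcgr2b and 207 for Fcgrt. The nearest were Pstpip2, Nipsnap3b and Dhx40 for Fcgr4, Nqo1, Armc1 and Sdcbp for Fcgr2b, and Bst2, Etfrf1 and Lst1 for Fcgrt, at distances of 0.0345 to 0.0953. With 4 libraries such likeness is a description of these samples.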

How the data were processed

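RNA-seq of 4 libraries (2 wt, 2 cko) was grouped by the labels. The authors deposited 1 FPKM value per gene and library for 24706 genes. The submitters' processing notes name Bowtie2 2.2.3, TopHat2 2.0.12, HTSeq 0.6.0 and mm9, although 92.6% of the deposited gene positions equal those of GENCODE M21 (GRCm38), which was used here. FPKM values had not been scaled between libraries. With GENCODE lengths, whole reads (within 0.01) were recovered for 91.2% of genes, including the 6 members, and gave the counting intervals.

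The limma package 3.58.1 under R 4.3.3 (lmFit and trended eBayes) compared the groups on log2(FPKM + 1), with no covariate, for the 10779 genes that averaged at least 1 FPKM. Fold changes are on this scale, which understates changes of low genes. The threshold, log2 fold change of at least 1 and adjusted p under 0.05, is that of the study's methods. The members and lists were chosen with earlier results of these data known. All members were named, and from each signalling list up to 3 higher and 3 lower genes of largest change at an unadjusted p under 0.05 (otherwise the 2 of largest change), with Syk, Lyn, Inpp5d, Ptpn6, Tyrobp, B2m, Itgam, Ptprc and Spi1. A gene that this rule names is not reported here. Alternatives were a pseudocount of 0.1, no filter or at least 5 FPKM, 2 scalings, no trend, a replicate block, voom on recovered reads and each library left out. The fit was tested on simulated data. Python 3.11.15 (tables) and matplotlib 3.10.9 (figures) were used.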

Additional observations from a re-analysis of the deposited data

How the results depend on the processing

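The 6 Fc receptor genes had 78 fold changes under the alternatives, of which 71 kept their direction, 0 passed the threshold and 7 reversed, all 7 among the 24 with 1 library left out. These were -0.023 for Fcgr1 and -0.028 for Fcgr4 without cko replicate 2, 0.38 for Fcgr3 without wt replicate 2 and 0.31 without cko replicate 2, -0.34 for Fcer1g without wt replicate 1 and -0.24 without cko replicate 1, and 0.070 for Fcgrt without cko replicate 1. With 1 library left out the log2 fold changes ran from -0.02 to 1.55 for Fcgr1, -1.07 to 0.38 for Fcgr3, -0.03 to 0.35 for Fcgr4, -0.36 to -0.0093 for Fcgr2b, -0.34 to 1.01 for Fcer1g and -0.52 to 0.07 for Fcgrt, the lone sample of a group being assumed to vary like the others. Adjusted p-values (limma) lay between 0.149 and 0.992 for Fcgr1, 0.209 and 0.871 for Fcgr3, 0.337 and 0.950 for Fcgr4, 0.477 and 0.992 for Fcgr2b, 0.228 and 0.924 for Fcer1g and 0.462 and 0.838 for Fcgrt. Over all genes, 0 passed the adjusted threshold with limma on log2 values (1768 had an unadjusted p under 0.05) and 2 passed with voom on recovered reads. Genes with an unadjusted p under 0.05 numbered 1135 at a mean of at least 5 FPKM, where fewer genes were tested, and 845 to 1732 with 1 library left out, namely 845 without wt replicate 1 and 1073 without cko replicate 2, where the cause was not tested. The activating to inhibitory log2 difference was 0.15, between -0.39 and 0.69 with 1 library left out, and 0.44 as the mean of the 3 single log2 ratios. Labels give both groups replicates 1 and 2 without saying that the numbers pair samples, and deviations of same-numbered libraries had a correlation of -0.163 across 10779 genes, so no pairing was assumed. With the replicate block 0 genes passed the adjusted threshold and 1247 had an unadjusted p under 0.05. With the crossed pairing, added after seeing the data together with the ratio of Fcer1g to Fcgr3, these were 1 and 2255. It pairs wt replicate 1 with cko replicate 2 and wt replicate 2 with cko replicate 1, following the swing seen in Fcgr1, Fcgr3 and Fcer1g. These 3 of the 6 members then had an unadjusted p under 0.05, which follows from that choice and gives no support. The lowest adjusted p-values above for Fcgr1, Fcgr3, Fcgr2b and Fcer1g came from the crossed pairing. In the other settings with 4 libraries 0 of 6 had an unadjusted p under 0.05. Depth limits Fcgr1 most, with 91 reads in wt replicate 2.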

Other observations

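Fcer1g lies among genes that are not Fc receptors. Apoa2, an apolipoprotein gene 3.19 kb away, was at 5.28 and 14.9 FPKM in wt and 9.94 and 11.2 FPKM in cko, high in wt replicate 2 as Fcer1g but not higher in cko replicate 1 than 2. B4galt3, a galactosyltransferase gene 36.0 kb away, was the gene nearest to Fcer1g in pattern, at 4.12 and 8.22 FPKM in wt and 12.2 and 5.40 FPKM in cko, at a level far below it. Sdhc, a subunit gene of complex II that lies between Fcgr3 and Fcer1g and 79.0 kb from the latter, was at 8.81 and 15.0 FPKM in wt and 13.1 and 10.2 FPKM in cko, with wt replicate 2 and cko replicate 1 the higher of each pair. Ppox, a gene of haem synthesis, was at 13.2 and 15.3 FPKM in wt and 13.1 and 10.1 FPKM in cko. These neighbours were looked at after the values of Fcer1g had been seen, and no test was made.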
